A study of Mus musculus with 6 samples.

Results

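The cytosolic ribosomal protein genes were examined in LSKs (Lin- Sca-1+ c-Kit+ cells of the bone marrow, the fraction that holds hematopoietic stem and early progenitor cells) from irradiated Tespa1-/- and Tespa1+/+ mice. The genes were chosen by name, as every protein-coding gene called Rpl or Rps with a number (including copies of a gene marked a, x, l or l1), together with Rplp0, Rplp1, Rplp2 and Rpsa. This gave 84 of the 55487 genes in the table, 52 of the large subunit and 32 of the small subunit, spread over 19 chromosomes. The name rule uses no measured value.

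Each group held 3 RNA-seq libraries, and whether a library came from 1 mouse or from a pool was not given. The Tespa1-/- mice carried the B6.129S-Tespa1tm1Smoc allele on a C57BL/6 background; the labels call the wild-type mice littermates, while the methods name C57BL/6 mice obtained from an institute. The labels name the sorted cells hematopoietic stem cells. The methods give male mice of 8 to 10 weeks, 5.0 Gy of whole-body irradiation and cell collection at day 13. All 6 libraries came from irradiated mice, so no unirradiated level can be given here.

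A cytosolic ribosome is built from a small subunit, which reads the mRNA, and a large subunit, which joins the amino acids. Each carries its own set of proteins on a core of ribosomal RNA, and Rplp0, Rplp1 and Rplp2 form the stalk of the large subunit that recruits elongation factors. Many ribosomal protein mRNAs start with a cytosine followed by a run of pyrimidines, the terminal oligopyrimidine (TOP) motif, through which mTORC1 and LARP1 control their translation. Loss of 1 copy of several of these genes causes Diamond-Blackfan anemia in humans, a failure of red cell production, and hematopoietic stem cells are known for a low rate of protein synthesis.

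Total counts ranged from 12856630 to 30576981 per library. Levels are given as CPM, the counts of a gene scaled to a common library size. The mean ± SD of Tespa1 itself over 3 libraries was 34.4 ± 1.62 CPM for Tespa1+/+ and 14.6 ± 0.635 CPM for Tespa1-/- LSKs, so the transcript was lower but still counted in the latter, and which part of the gene was deleted is not known here. The marker genes of the sorted population were not at the same level in the groups. The sum of 7 LSK markers was 1163 to 1188 CPM in Tespa1+/+ and 635 to 653 CPM in Tespa1-/- libraries, and that of 8 neutrophil granule genes was 20.9 to 23.7 CPM against 469 to 495 CPM. The summed level of 4 T cell markers stayed below 1 CPM in every library, that of 5 erythroid markers was 16.8 to 17.8 against 39.6 to 43.2 CPM, that of 6 B and plasma cell markers 72.1 to 98.4 against 122 to 130 CPM (122.0 in the lowest library), and that of 5 monocyte and macrophage markers 168 to 172 against 116 to 124 CPM. None of the LSK, neutrophil, erythroid and monocyte markers was at 0 in either group, while 1 B and plasma cell marker and 1 T cell marker were at 0 in Tespa1-/- libraries. The part of these marker differences in the results on ribosomal protein genes was not tested, and in sorted bulk RNA a different mix of cells and a different amount of RNA per cell cannot be told apart.

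Ribosomal protein genes were higher in Tespa1-/- LSKs, nearly throughout the family. Of the 84 genes, 83 were tested, since Rpl10l had no count in any library. At an adjusted p under 0.05, 77 rose and 1 fell, while 31.5% of all 15332 genes tested rose and 31.8% fell. With a fold over 1.5 in addition, 53 rose and 1 fell, against 14.0% and 19.2% of all genes. The median log2 fold change was 0.63, that is a 1.55-fold higher level (quartiles 1.46 and 1.68), beside a median of 0.00 over all genes tested. In 78 of the 83 genes every Tespa1-/- library was above every Tespa1+/+ library, as in 34.5% of all genes.

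**Figure D1:**
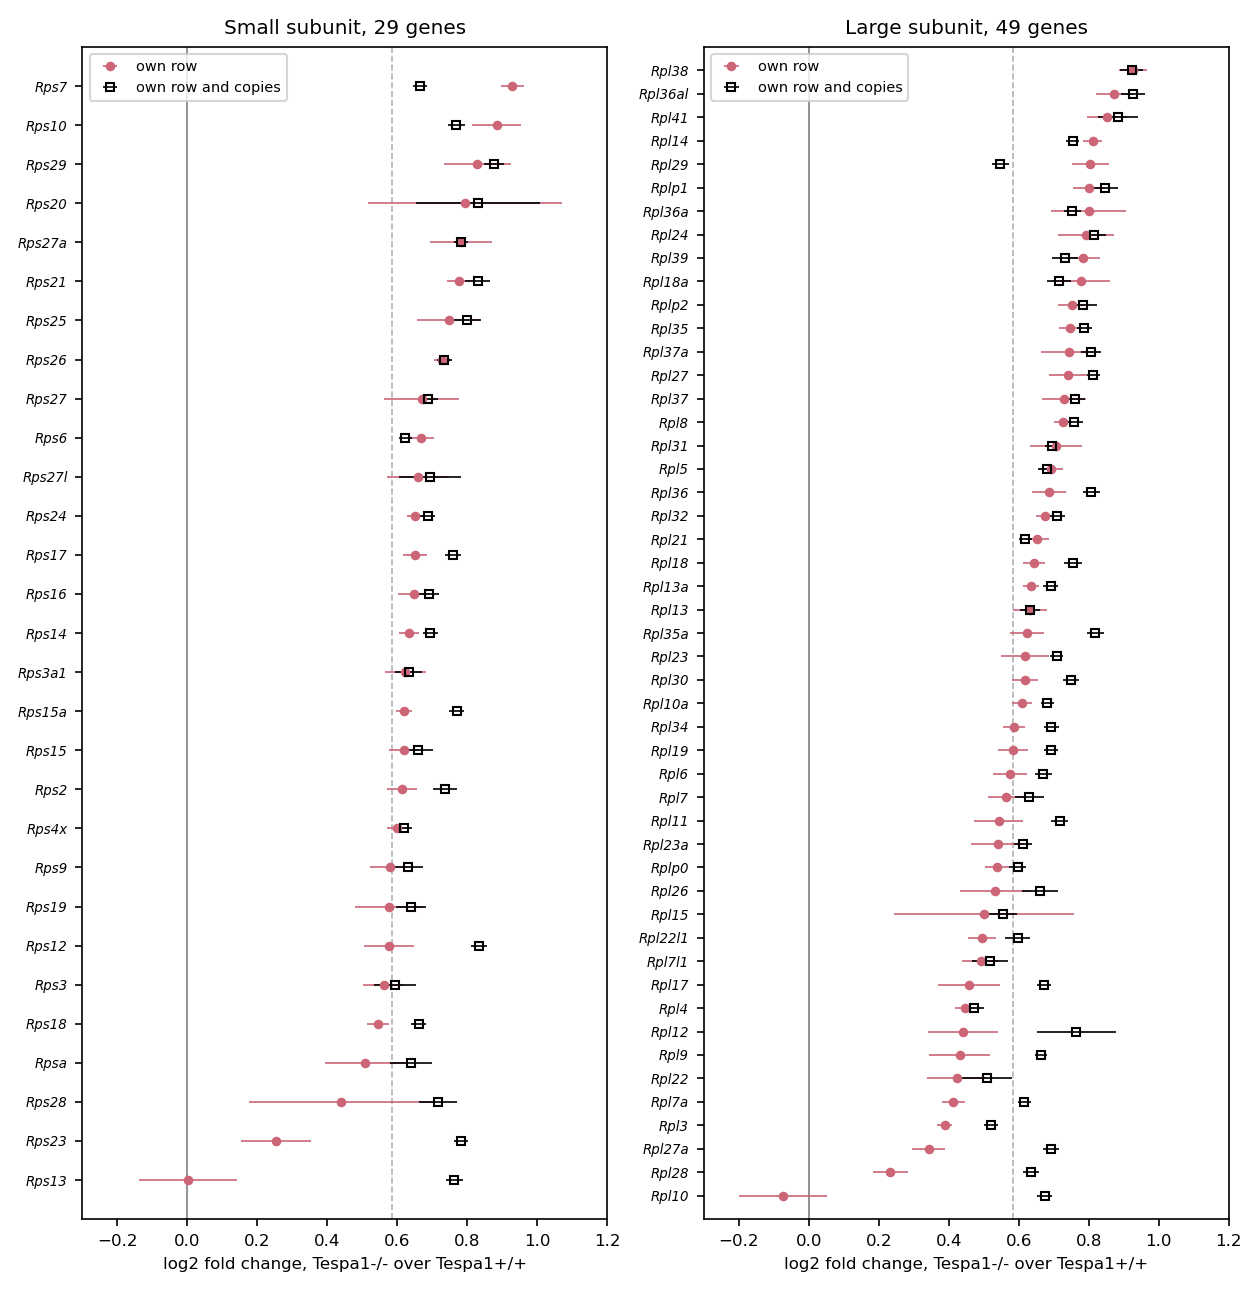
The log2 fold change of each ribosomal protein gene (Tespa1-/- over Tespa1+/+, horizontal axis) is plotted for 29 small subunit genes and 49 large subunit genes, with bars of 1 standard error. Red circles use the counts of the gene alone and open squares add the counts of its near-identical copies; the dashed line marks a 1.5-fold rise, and Rpl3l and Rpl39l lie outside the range shown and a few further genes are not drawn.

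The subunits moved alike. Of the 32 small subunit genes tested, 29 rose, 23 of them by over 1.5-fold, and the median log2 fold change was 0.65. Of the 51 large subunit genes tested, 48 rose, 30 of them by over 1.5-fold, 1 fell, and the median was 0.62. Among the 19 genes mutated in Diamond-Blackfan anemia, 17 rose, 14 of them by over 1.5-fold, with a median of 0.65, close to the 0.63 of the whole family. Of all genes 31.5% rose, and 14.0% by over 1.5-fold. With the length corrections described below, 15 (exon length) and 14 (coding transcript length) of the 19 rose, against 29.8% and 30.3% of all genes. By over 1.5-fold 7 and 2 did so, against 8.04% and 8.2%. The differences between the subunits and this list were not tested.

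The share of all counts that fell on the 84 genes was 3.01%, 3.00% and 3.01% in the Tespa1+/+ libraries and 4.27%, 4.36% and 4.33% in the Tespa1-/- libraries. The groups lay apart by far more than their spread, with means of 3.01% ± 0.00545 (SD, n = 3) and 4.32% ± 0.0482 (SD, n = 3). An exact two-sided permutation test gave p = 0.1, the smallest value that 3 against 3 libraries can reach. The Tespa1-/- share was 1.44 times the Tespa1+/+ share by counts, while as a share of the summed deposited FPKM values the means were 3.73% and 4.48%.

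**Figure D2:**
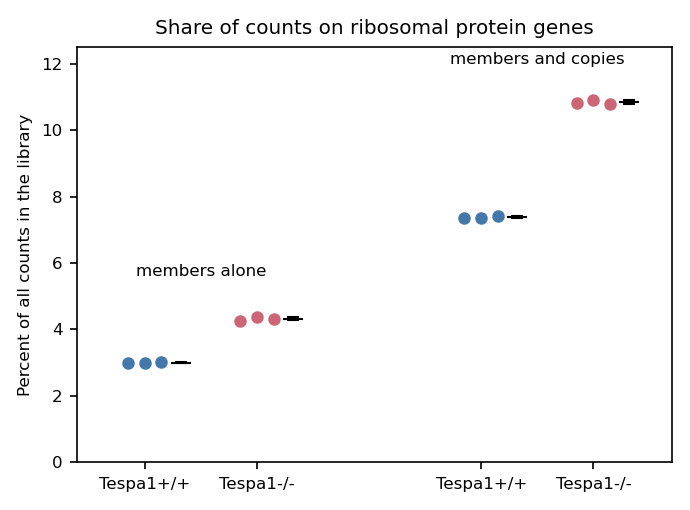
The percent of all counts of a library that fell on the 84 ribosomal protein genes (left) or on these genes and their near-identical copies (right) is plotted for each of the 6 libraries, with the mean and SD of each group as bars. The Tespa1-/- libraries sit between 4.27% and 4.36% on the left and between 10.8% and 10.9% on the right, above the Tespa1+/+ libraries on each side.

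The most abundant members per length were Rplp1, Rpl8, Rpl4, Rps15 and Rps3a1, by the deposited FPKM values. Rplp1, a protein of the stalk, stood at 2195 ± 21.8 FPKM (SD, n = 3) in Tespa1+/+ and 3568 ± 241 FPKM (SD, n = 3) in Tespa1-/- LSKs, well above the next, Rpl8, at 871 ± 27.7 and 1344 ± 6.85 FPKM. Rpl4 and Rps15 followed at 887 ± 29.2 and 812 ± 31.9 FPKM in Tespa1+/+ LSKs, and Rpl8 and Rpl4 did not differ there beyond their spread. Rps3a1 was at 702 ± 56.3 FPKM in Tespa1+/+ and 1007 ± 35.6 FPKM in Tespa1-/- LSKs. The order within the family depends on the length used, since the length implied by the deposited values had a median of 3151 bases over the 84 genes and the annotated exons a median of 1754 bases.

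The mRNAs of the stalk proteins rose together. Rplp1 (chromosome 9, 61913284 to 61914542, minus strand) was at 1062, 1069 and 1048 CPM in the Tespa1+/+ libraries and 1710, 1947 and 1881 CPM in the Tespa1-/- libraries, a log2 fold change of 0.80 ± 0.05 (SE; adjusted p = 8.37e-06). Rplp2 was at 463, 513 and 503 CPM against 822, 831 and 837 CPM, a log2 fold change of 0.75 (adjusted p = 6.08e-06). Rplp0, which anchors the pair to the ribosome, was at 1541, 1685 and 1652 CPM against 2341, 2335 and 2406 CPM, a log2 fold change of 0.54 (adjusted p = 1.50e-05). In each of the 3 genes the groups were far apart and did not overlap.

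Rpl5 and Rpl11, which bind 5S ribosomal RNA and, when free, the p53 regulator MDM2, are known sensors of ribosome assembly. Rpl5 was at 164, 158 and 158 CPM in the Tespa1+/+ libraries and 260, 252 and 264 CPM in the Tespa1-/- libraries (log2 fold change 0.69, adjusted p = 4.00e-06). Rpl11 was at 72.9, 62.4 and 67.3 CPM against 103.8, 98.6 and 92.3 CPM (log2 fold change 0.54, adjusted p = 0.000395). Both rose with no overlap of the groups.

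Among small subunit genes of known disease or signalling roles, Rps6, the ribosomal substrate of S6 kinase, was at 263, 244 and 254 CPM in the Tespa1+/+ libraries and 413, 400 and 396 CPM in the Tespa1-/- libraries (log2 fold change 0.67, adjusted p = 6.32e-06). Rps14, which is lost in the 5q- syndrome, was at 616, 627 and 639 CPM against 950, 1008 and 963 CPM (log2 fold change 0.63, adjusted p = 3.71e-06). Rps19, the gene most often mutated in Diamond-Blackfan anemia, was at 307, 331 and 316 CPM against 398, 523 and 503 CPM (log2 fold change 0.58, adjusted p = 0.00154). All of these were higher in every Tespa1-/- library, though Rps19 in replicate 1 was nearer to the Tespa1+/+ range than in the other replicates. Rpsa, which is also known as the laminin receptor, was at 1231, 1257 and 1430 CPM against 1640, 2201 and 1728 CPM (log2 fold change 0.51, adjusted p = 0.0061).

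Rps7, Rpl38 and Rps10 were among the genes with the largest rises, of those with 10 or more counts in every library. Rps7 was at 154, 152 and 162 CPM in the Tespa1+/+ libraries and 299, 294 and 298 CPM in the Tespa1-/- libraries, a log2 fold change of 0.93 ± 0.03 (SE; adjusted p = 1.56e-06). Rpl38, known for its part in the translation of Hox mRNAs, was at 79.1, 79.8 and 82.3 CPM against 153, 147 and 158 CPM (log2 fold change 0.93, adjusted p = 2.80e-06). Rps10 had a log2 fold change of 0.88, and in all of these genes the groups were far apart.

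The regulatory sequence that these genes are best known for was read at their start sites. RefSeq (GRCm38.p6) gave a window of 300 bases, 250 of them before the start, for 64 of the 84 genes. A run of at least 5 C or T that begins with C within 3 bases of the annotated start was present in 25 of the 64 genes (39.1%) and in 13.5% of all 27025 genes with such a window. With the run required to begin at the annotated start itself, the numbers were 13 of 64 (20.3%) and 3.01%. Annotated starts can be off by several bases or more (the RefSeq start of Rps6 lies 45 bases inside the GENCODE gene), so the absence of a run says only that these letters were not in this window. The stretches of 30 bases around the start are shown for 5 genes that rose and carry the run, with the run in capitals, and for Rpl39l and Rpl3l, the genes with the most extreme fold changes, in which none was found:
Rps6, chr4:86857353-86857382, minus strand: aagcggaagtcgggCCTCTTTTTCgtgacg
Rpl38, chr11:114668565-114668594, plus strand: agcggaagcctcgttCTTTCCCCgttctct
Rps10, chr17:27635230-27635259, minus strand: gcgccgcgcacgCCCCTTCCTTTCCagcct
Rplp2, chr7:141447636-141447665, plus strand: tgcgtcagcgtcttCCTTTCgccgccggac
Rpl28, chr7:4792950-4792979, plus strand: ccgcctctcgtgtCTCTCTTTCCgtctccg
Rpl39l, chr16:10170213-10170242, plus strand: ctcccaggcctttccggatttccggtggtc
Rpl3l, chr17:24727811-24727840, plus strand: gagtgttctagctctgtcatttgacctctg

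Genes with and without this run had similar fold changes, a difference that was not tested. The 25 genes that carry it had a median log2 fold change of 0.63 and the other 38 tested genes with a window 0.61. Further motifs were searched on either strand of the same windows; the reverse strand of the ETS core begins with CTTCC and can share letters with a pyrimidine run. The ETS core CCGGAAG was in 40.6% of the ribosomal protein windows and in 9.93% of all, the YY1 core AAGATGGC in 9.38% and 3.19%, the letters TATAAA in 10.9% and 15.7%, and the E-box CACGTG, to which MYC and other factors bind, in 9.38% and 8.09%.

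The members that did not rise were few. Rpl10, Rps13, Rpl15, Rps23 and Rps28 did not pass the test, and Rpl28 rose by a log2 fold change of only 0.23 (adjusted p = 0.00514). Rps13 (ENSMUSG00000090862, chromosome 7, 116331505 to 116334195) was at 14.2, 10.2 and 11.9 CPM in the Tespa1+/+ libraries and 12.7, 10.8 and 12.7 CPM in the Tespa1-/- libraries, so the groups overlapped throughout (log2 fold change 0.00 ± 0.14, SE; adjusted p = 0.993). Rpl10 (ENSMUSG00000008682, chromosome X, 74270812 to 74273135) was at 116, 90.4 and 98.4 CPM against 109.0, 81.3 and 98.9 CPM, again with overlap (log2 fold change -0.07 ± 0.13, SE; adjusted p = 0.64). Rps23, which sits at the decoding site, was at 21.4, 18.1 and 16.9 CPM against 23.5, 21.6 and 22.2 CPM, narrowly apart (log2 fold change 0.25, adjusted p = 0.0585).

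Several of these genes share a property with many members that rose, and the name rule did not use it. Most reads of their kind were counted elsewhere. Mammalian genomes hold many processed pseudogenes of ribosomal protein genes, which are intronless copies of the mRNA. A match of the annotated transcripts (at least 90% identity over at least 100 bases and 60% of the copy) found 1148 genes that are near-identical copies of a member. Of the 84 members, 80 had at least 1 such copy, and Rpl7a had the most, 91. Together the copies held 145% to 146% as many counts as the members in the Tespa1+/+ libraries and 149% to 154% in the Tespa1-/- libraries. In 54 members over 50% of the counts of the member and its copies lay on the copies, and the median over members was 64.6%.

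For Rps13 the copies held 98.3% of these counts, for Rps23 98.4%, for Rpl28 97.0% and for Rpl10 93.1%. Rps10, with 92.4% on copies, and Rpl36a, with 96.2%, nevertheless rose on their own by 0.88 and 0.80. Whether the copies account for the members that did not rise was not tested. The coding sequence of Rps13, 453 bases, was identical in Rps13-ps2 and differed at 2 bases in Rps13-ps1. That of Rpl10, 642 bases, was identical in Rpl10-ps1 and differed at 3 bases in Rpl10-ps5. A read that lies inside an identical stretch cannot be assigned by its letters, and how the counting handled such reads was not given. Stretches of 30 coding bases from GENCODE M21 (GRCm38) show this, with a base that differs from the member in capitals; those of the members span an intron in the genome:
Rps13, chr7:116331581-116332405, minus strand: gcgggtgctcccacctaattggaaatatga
Rps13-ps1, chr8:87048115-87048144, plus strand: gcgggtgctcccaccCaattggaaatatga
Rps13-ps2, chr7:88530474-88530503, minus strand: gcgggtgctcccacctaattggaaatatga
Rpl10, chrX:74271014-74271678, plus strand: cccgcccggtgttaccggtattgtaagaac
Rpl10-ps1, chr2:105554804-105554833, minus strand: cccgcccggtgttaccggtattgtaagaac
Rpl10-ps5, chr8:94223005-94223034, plus strand: cccgcccggtgttacTggtattgtaagaac

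Counts on the copies were therefore added to each member and the whole table was fitted again, an alternative chosen after the data were seen. Of the 83 members tested, 82 then rose, against 31.8% of all genes, and 76 did so by over 1.5-fold, against 13.5%. The median log2 fold change was 0.70, beside 0.01 over all genes. With the copies, Rps13 was at 543, 534 and 552 CPM in the Tespa1+/+ libraries and 932, 906 and 925 CPM in the Tespa1-/- libraries (log2 fold change 0.76, adjusted p = 9.36e-07). Rpl10 was at 1181, 1135 and 1156 CPM against 1857, 1837 and 1845 CPM (log2 fold change 0.67, adjusted p = 9.41e-07). Rps23 gave 0.78 and Rpl28 0.64 on the same scale, and all of these lay inside the range of the other members. Most of the summed counts of these genes lay on copies. Their summed values therefore mainly follow the copies and do not show how the gene itself changed.

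**Figure D3:**
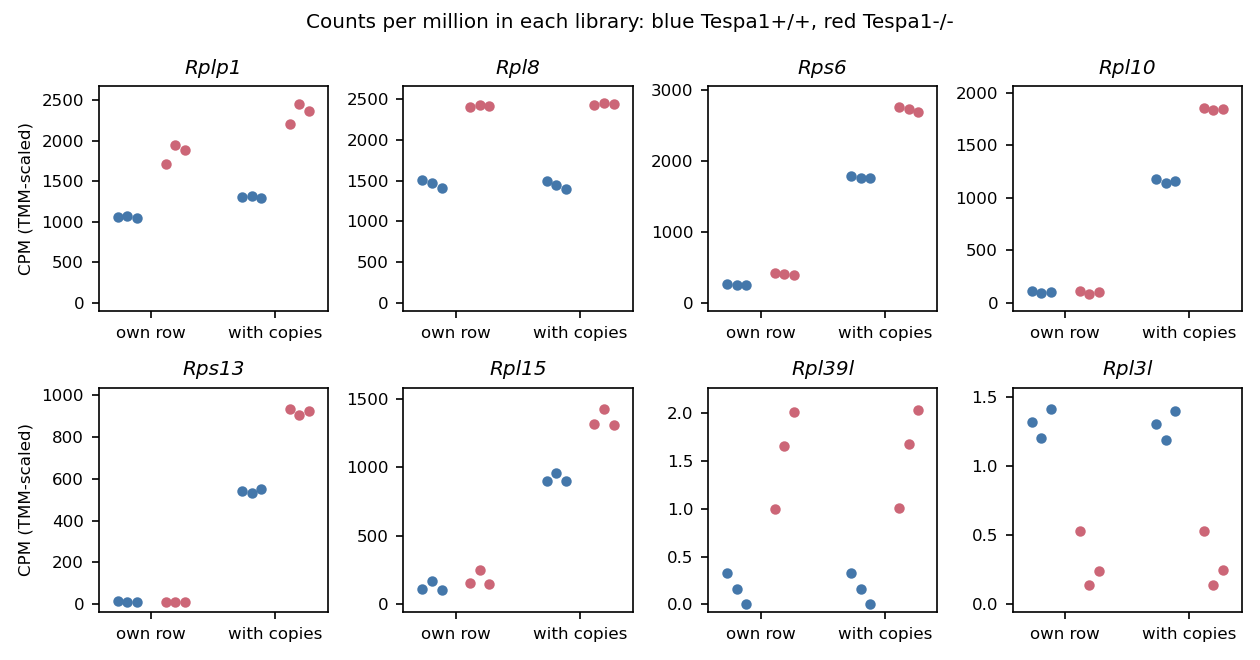
CPM of 8 members is plotted for each library (blue, Tespa1+/+; red, Tespa1-/-), from the row of the gene alone and with its near-identical copies added; each panel has its own linear axis. Rpl8 has nearly the same level on both sides of its panel, while Rps13 and Rpl10 separate by group only once the copies are added.

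The fold changes also drew together. Over the 81 members with 10 or more counts in every library, the log2 fold changes of the genes alone ran from -0.07 to 0.93 with an SD across genes of 0.18, and those with copies from 0.47 to 0.93 with an SD of 0.0933. Members with few reads on copies give a view that this choice hardly touches. In 11 genes under 10% of the counts lay on copies, among them Rpl4, Rpl8, Rpl32, Rplp2, Rps3 and Rps15, and their own log2 fold changes ran from 0.45 to 0.85 with a median of 0.66. In the 22 genes with 90% or more on copies the range was -0.07 to 0.88 and the median 0.60. Rpl8, with 0.0384% of the counts on its 1 copy, was at 1504, 1466 and 1413 CPM in the Tespa1+/+ libraries and 2408, 2425 and 2415 CPM in the Tespa1-/- libraries (log2 fold change 0.73 ± 0.03, SE; adjusted p = 1.56e-06).

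**Figure D4:**
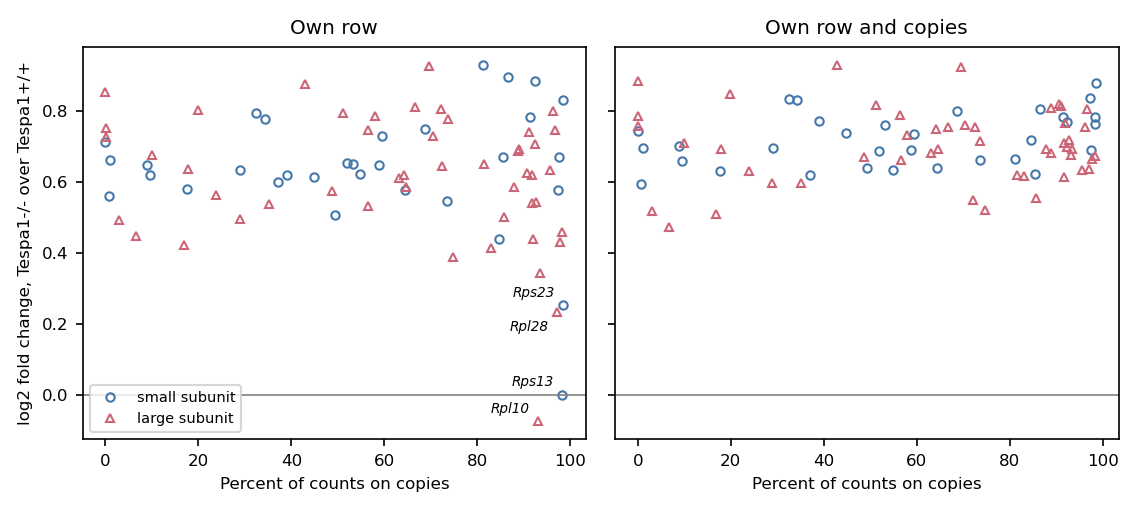
The log2 fold change of the 81 members with 10 or more counts in every library (vertical axis) is plotted against the percent of the counts of a member and its copies that lay on the copies, for the gene alone (left) and with the copies added (right), with circles for the small and triangles for the large subunit. On the left the lowest points, Rpl10, Rps13, Rpl28 and Rps23, sit at the right edge, above 90%; on the right no member is below 0.47.

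As a share of all counts, members and copies together held 7.35%, 7.36% and 7.41% in the Tespa1+/+ libraries and 10.8%, 10.9% and 10.8% in the Tespa1-/- libraries. The ratio of the means was 1.47, close to that for the members alone.

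Some genes had libraries that disagreed within a group, with or without copies; these were picked out after their values were seen. Rpl15 was at 114, 173 and 101 CPM in the Tespa1+/+ libraries and 154, 247 and 149 CPM in the Tespa1-/- libraries, with replicate 2 high in each group (log2 fold change 0.50, adjusted p = 0.129). With copies it was at 901.5, 955 and 898 CPM against 1313, 1426 and 1307 CPM (0.55, adjusted p = 2.95e-05). Rps28 was at 59.5, 51.6 and 54.4 CPM against 43.3, 87.3 and 94.4 CPM, with the low value in Tespa1-/- replicate 1, and its log2 fold change went from 0.44 (adjusted p = 0.182) to 0.72 with copies (adjusted p = 2.95e-05). Without that library, Rps28 alone gave 0.73 (adjusted p = 0.000379), and without Tespa1+/+ replicate 2 Rpl15 gave 0.78 (adjusted p = 0.0289). Rps20 was at 499, 526 and 242 CPM against 861, 632 and 705 CPM; its rise (log2 fold change 0.79, adjusted p = 0.0391) no longer passed the test without Tespa1-/- replicate 1 (0.67, adjusted p = 0.11) or without Tespa1-/- replicate 3 (0.83, adjusted p = 0.0685). With copies Rps20 stayed as uneven, at 706, 722 and 449 CPM against 1238, 1011 and 1094 CPM, and Tespa1+/+ replicate 3 was again low (SD of the Tespa1+/+ libraries 153 CPM, and 156 CPM for the gene alone). Rpl12 became more uneven with copies, from 82.4, 73.0 and 94.8 CPM to 726, 978 and 1006 CPM in the Tespa1+/+ libraries.

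Genes that encode a related form of a ribosomal protein were compared with their parents. Of the 7 such members, 6 were tested. Of these 5 rose, against 31.5% of all genes, and 1 fell, against 31.8%. The calls include Rpl39l, which rose, and Rpl3l, which fell, both on the low counts given below. Rpl36al was at 116, 104 and 107.0 CPM in the Tespa1+/+ libraries and 209, 191 and 198 CPM in the Tespa1-/- libraries (log2 fold change 0.87), and its parent Rpl36a, at 14.4, 14.9 and 13.02 against 22.0, 24.1 and 28.0 CPM, gave 0.80. Rpl22l1 gave 0.49 beside 0.42 for Rpl22, Rpl7l1 0.49 beside 0.56 for Rpl7, and Rps27l, a target of p53, 0.66 beside 0.67 for Rps27. These pairs rose by similar amounts in the main analysis, and the differences within pairs were not tested. With coding transcript length, a correction described below, Rpl22l1 gave 0.15 beside 0.44 for Rpl22. On that scale Rpl36al gave 0.60 beside 0.43 for Rpl36a, and Rpl7l1 0.31 beside 0.32 for Rpl7.

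The remaining paralogues were nearly silent and moved apart. Rpl39l (ENSMUSG00000039209, chromosome 16, 10170226 to 10174911), best known from the testis, had 6, 5 and 0 counts in Tespa1+/+ and 17, 24 and 25 counts in Tespa1-/- libraries (log2 fold change 3.11 ± 0.58, SE; adjusted p = 0.00258). The summed counts, 11 and 66, gave an 8.22-fold ratio per total count (95% exact interval 4.31 to 17.3, counting error only), while the parent Rpl39 gave a log2 fold change of 0.78. Rpl3l (ENSMUSG00000002500, chromosome 17, 24727820 to 24736143), the striated muscle form of Rpl3, had counts of 24, 38 and 21 against 9, 2 and 3 (log2 fold change -2.01 ± 0.38, SE; adjusted p = 0.00286), a ratio of 0.231 per total count (95% exact interval 0.121 to 0.41), while Rpl3 rose by 0.39 (adjusted p = 5.71e-06). Each of the pair passed the filter on low counts only through the group in which it was higher, so its call is no support for the direction of the family. Rpl10l, a testis form of Rpl10, had a count of 0 in all 6 libraries, which allows up to 0.0981 to 0.233 CPM, depending on the library.

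Gene length moved with the fold change in these data, and ribosomal protein genes are short. Their annotated exons had a median of 1754 bases (383 to 6270), against 3664 bases over all genes tested. All genes tested were ranked by length and split into 10 groups of similar size, and the median log2 fold change went from 0.54 in the group of shortest genes to -0.56 in the longest. The group of shortest genes also held 314 of the copies described above, and without members and copies its median was 0.40. In the groups that held at least 5 members, the median of the members was higher than that of all genes: 0.80 against 0.54, 0.67 against 0.41, 0.65 against 0.29, 0.57 against 0.19 and 0.51 against 0.07, from the shortest to the fifth.

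**Figure D5:**
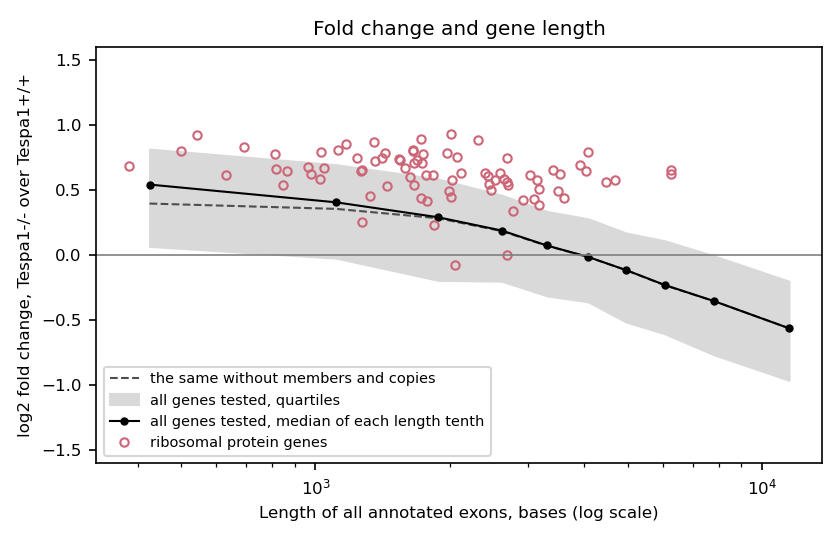
The log2 fold change of the 81 members with 10 or more counts in every library (red circles) is plotted against the summed length of their annotated exons (log axis). The black line joins the medians of all genes tested in each of 10 groups by length, grey shading spans their quartiles, and the dashed line leaves out members and copies; most members lie above the black line.

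A fit that removed this trend with the annotated exon length lowered the rise without ending it. In it 71 members rose, against 29.8% of all genes, but only 13 by over 1.5-fold, against 8.04%, and the median log2 fold change was 0.41 beside 0.02 over all genes. With copies added and the same correction, 82 rose (29.8% of all genes) and 13 by over 1.5-fold (8.47%), with a median of 0.44. That fit used the exon length of the member for the summed counts, although many copies are shorter. How far it removed the trend from the counts on copies is therefore not known. With the length of the coding transcripts instead, whose median was 713 bases over members, 68 rose (30.3% of all genes), 6 by over 1.5-fold (8.2%), 2 fell, and the median was 0.33. The direction of the family was thus the same with each length, while the number of genes past 1.5-fold was not. Rpl8 stood at 0.40 (adjusted p = 3.76e-05) and Rps6 at 0.38 (adjusted p = 0.000159) after the correction with exon length, and Rpl28 at -0.025 (adjusted p = 0.796).

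Genes that act with the ribosome were examined next, in lists written from general knowledge. Their counts are to be read beside the shares of all genes tested, of which 31.5% rose, 14.0% rose by over 1.5-fold, 31.8% fell and 19.2% fell by over 1.5-fold. Genes of ribosome components outside the name rule rose: Fau, which encodes RPS30, gave a log2 fold change of 0.90 and Rack1 0.51, and both passed the test. Of 12 chaperones and late assembly factors, 11 rose, against 31.5% of all genes, and none fell, with a median of 0.48; the 2 that rose by over 1.5-fold are a share near the 14.0% of all genes. Naca and Btf3, the nascent chain complex that binds at the exit tunnel, gave 0.57 and 0.61. Sbds, which frees the large subunit for joining and is mutated in Shwachman-Diamond syndrome, gave 0.49. After the correction for exon length Naca, Btf3 and Sbds stood at 0.85, 0.34 and 0.25. With that correction 11 of the 12 rose, against 29.8% of all genes, with a median of 0.35. With coding transcript length 12 rose, against 30.3%, with a median of 0.35.

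Translation factors rose less evenly in the main analysis. Of 29 initiation factors, 22 rose, against 31.5% of all genes, 7 of them by over 1.5-fold, against 14.0%, and 2 fell, against 31.8%, with a median of 0.36. Eif2s2, a subunit of the factor that delivers initiator tRNA, was highest at 0.99 (adjusted p = 1.21e-05), while Eif4g1, the scaffold of the cap complex, fell by 0.19 (adjusted p = 0.00431) but stood at 0.13 (adjusted p = 0.0211) after the correction for exon length. Among 11 elongation and termination factors 7 rose, against 31.5% of all genes, and 1 fell, against 31.8%, with a median of 0.28. Subunits of the exchange complex Eef1b2 and Eef1d gave 0.92 and 0.85, the GTPases Eef1a1 and Eef2 0.28 and 0.13, and Eef2k, the kinase that inhibits Eef2, fell by 0.37 (adjusted p = 0.000329), or by 0.052 (adjusted p = 0.374) after the correction for exon length. With that correction 25 of the 29 initiation factors rose and 1 fell, with a median of 0.36. Of the 11 elongation and termination factors 8 then rose and 0 fell, with a median of 0.21. The share of all genes that rose was 29.8%, and the median of the ribosomal protein genes 0.41. With coding transcript length the medians were 0.28 for initiation, 0.33 for elongation and termination, and 0.33 for the ribosomal protein genes. These differences were not tested.

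The genes of mTORC1 and of TOP mRNA control rose and fell in shares near those of all genes. Of 16 such genes 4 rose, against 31.5% of all genes, and 5 fell, against 31.8%, with a median of -0.01; 1 rose by over 1.5-fold, against 14.0%, and 3 fell by over 1.5-fold, against 19.2%. Mtor fell by 0.68, or by 0.21 after the correction for exon length. Its negative regulators Tsc1 and Tsc2 fell by 0.78 and 0.71, or by 0.24 and 0.26 after that correction. Eif4ebp1, a repressor of cap-dependent translation that mTORC1 inactivates, rose by 0.88, or by 0.67 after that correction. Its relative Eif4ebp2 fell by 0.53, or by 0.34 after that correction. Larp1, the TOP mRNA binding protein, rose by 0.11 (adjusted p = 0.0034), or by 0.39 (adjusted p = 1.67e-05) after it. With the correction 7 of the 16 rose, against 29.8% of all genes, and 4 fell, 0 of them by over 1.5-fold, and the median was 0.23, beside 0.02 over all genes.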

How the data were processed

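LSK RNA of 3 irradiated Tespa1+/+ and 3 Tespa1-/- samples was sequenced from stranded, poly-A selected, paired-end libraries. The authors deposited 1 table with a raw count and an FPKM value per gene and sample. The submitters' processing notes name CASAVA 1.8, HISAT2, StringTie, edgeR and the build GRCm38; the counting tool, its use of strand and its handling of reads with several matches are not given in the sources used here. Groups came from the sample titles. Counts were filtered (filterByExpr), scaled by TMM and tested with edgeR 4.0.16 (quasi-likelihood, R 4.3.3), with Benjamini-Hochberg adjustment over all genes tested; CPM are TMM-scaled and fold changes are Tespa1-/- over Tespa1+/+. Calls needed an adjusted p below 0.05, in some counts together with a fold over 1.5.

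Copies were found with blastn 2.17.0 on GENCODE M21 transcripts. The length correction was a loess offset (span 0.5) in edgeR. Alternatives were RLE factors, total counts, other filters, DESeq2 1.42.0, limma-trend 3.58.1 on log2(FPKM + 1) and log2(FPKM + 0.1), a replicate block and leaving out each library; code was tested on simulated data. Exons of 19 members overlap genes on the opposite strand. Replicates may be technical, and p-values measure only the spread between these samples.

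Named members were the 5 most abundant by FPKM, the 5 highest and 5 lowest fold changes, paralogues with their parents, and Rplp0, Rplp1, Rplp2, Rpl5, Rpl11, Rps6, Rps19, Rps14 and Rpsa; results on a few genes are not reported here. The members, lists and rules were chosen with earlier results of these data known.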

Additional observations from a re-analysis of the deposited data

How the results depend on the processing

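Copies and coding transcript length were chosen after seeing the data. The counts below are to be read beside the shares of all genes tested. At the adjusted p, 31.5% rose in the main analysis and 31.8% with copies. With exon length 29.8% rose, with or without copies, and with coding transcript length 30.3%. By over 1.5-fold these shares were 14.0%, 13.5%, 8.04% (8.47% with copies) and 8.2%. The 6 members past 1.5-fold with coding transcript length are a share near that 8.2%. Shares for the other settings are not given here. The rise of the family held its direction in every setting run, with 68 to 82 members past an adjusted p under 0.05, but the number past 1.5-fold did not. This number was 53 in the main analysis, 29 with total counts, 24 and 28 with limma-trend on log2(FPKM + 1) and log2(FPKM + 0.1), 13 with the correction for annotated exon length, alone, with the replicate block or with copies added, 22 with the length implied by the deposited values, and 6 and 3 with the coding transcript length, without and with copies. The median log2 fold change, 0.63, was 0.53 with total counts (which moved the median of all genes to -0.10), 0.61 with 10 or more counts in every library, 0.52 and 0.53 with limma-trend, 0.41 with exon length and also with the block, 0.51 with the implied length, 0.70 with copies, 0.44 with copies and exon length, and 0.33 and 0.44 with the coding transcript length, without and with copies. The 1 member that fell, Rpl3l, was not tested with 10 or more counts or in limma-trend, which left 0 there; the count was 2 with exon length and block, and with coding transcript length, where Rpl10 fell as well. Leaving out each library gave 53 to 59 members past 1.5-fold, 76 to 78 past the adjusted p, 1 lower at either rule, a median of 0.63 to 0.66 and a difference in share of 1.29 to 1.42 percentage points.

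Of 33 named members tested, 26 kept direction and side of the threshold in every setting. Rps19 no longer passed the edgeR test with coding transcript length (log2 fold change 0.27, adjusted p = 0.053). Rpl10 ran from -0.17 (without Tespa1-/- replicate 1) to 0.045 (without Tespa1-/- replicate 2) and also reversed, to 0.033, without Tespa1+/+ replicate 1; it reversed to 0.67 with copies, 0.41 with copies and exon length and 0.40 with copies and coding length. Rps13 reversed to -0.10 with total counts, -0.020 with 10 or more counts, -0.059 and -0.090 in limma-trend, -0.15 with exon length with or without the block, -0.25 with coding length, and ran from -0.11 to 0.14 on leaving out 1 library, reversed in 3 of 6 such fits. Rpl28 reversed to -0.025 with exon length, -0.026 with the block in addition and -0.035 with coding length, and Rps23 to -0.082 with exon length and -0.079 with the block in addition. Beyond the construction of these settings the cause was not tested.

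For samples with the same replicate number, the deviations from the group means correlated at 0.0459, 0.0107 and 0.0595 over all genes tested. Single genes can still share a replicate pattern, as in Rpl15, which was high in replicate 2 of each group. With the replicate block 79 members rose, 53 by over 1.5-fold, and the shares of all genes with the block are not given here. Depth limits Rpl39l, Rpl3l and Rpl10l, which had 83 counts or fewer per group.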

Other observations

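The near-identical copies were also followed one by one, as genes of their own. Of the 1148 copies, 424 passed the filter on low counts; 377 of these rose and 5 fell (adjusted p below 0.05), with a median log2 fold change of 0.74, against 31.5% and 31.8% of all genes tested and a median of 0.00. Copies are short, and 314 of them were in the group of the shortest 1532 genes, whose median over all genes was 0.54. The copies named here were picked out after their values were seen. Gm8210, a processed pseudogene that matches Rpl29 at 99.4% of bases, went the other way, with 648, 1163 and 575 counts in Tespa1+/+ and 48, 22 and 25 counts in Tespa1-/- libraries (log2 fold change -4.11 ± 0.17, SE; adjusted p = 2.61e-06), while Rpl29 itself was at 123, 136 and 132 CPM against 219, 240 and 225 CPM (log2 fold change 0.81). Gm15526, another copy of Rpl29, was higher by 1.89 (adjusted p = 2.0e-05), from counts of 153, 197 and 120 against 508, 366 and 350. Gm11688, a copy of Rpl10, and Gm17971, a copy of Rps2, had log2 fold changes of -1.46 and -1.35, and Gm8292, a copy of Rps24, and Gm14036, a further copy of Rpl29, -0.35 and -0.28.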
